A study of Homo sapiens with 6 samples.

Results

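The 10 Wnt target genes *AXIN2*, *NKD1*, *RNF43*, *ZNRF3*, *NOTUM*, *LGR5*, *ASCL2*, *TCF7*, *SP5* and *MYC* were followed through the SW480 libraries of the series. They were chosen by name as well-known transcriptional targets of the Wnt pathway in the intestine, and all 10 were found among the 19225 gene symbols of the expression table. The established line SW480 comes from a colon cancer, is labelled as tumor cells with mutant p53, and is known to carry a truncated APC protein. The labels give plasmid transfection as the treatment of every sample, and 3 control libraries were compared with 3 libraries of cells transiently transfected with MDM4 plasmids, each numbered replicate 1, 2 or 3 of its group. In the sample titles the other group is named "exercised"; as only 1 group besides control exists, it was taken to be MDM4, and the letters G and M of the table's columns were read as control and MDM4. What the control plasmid carried, the time of harvest and whether the replicates were separate cultures are not given for these libraries in the sources used here, so that the p-values below measure only the spread between these libraries, which may be technical.

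In Wnt signalling, a destruction complex built around APC and the AXIN scaffolds marks β-catenin for degradation, and a Wnt ligand bound to Frizzled and LRP receptors switches that complex off. β-catenin then enters the nucleus and, on TCF and LEF factors, switches on target genes, many of which feed back on the pathway. In most colon cancers, SW480 included, a truncated APC leaves β-catenin stable without a ligand, and targets such as *AXIN2* are used as a readout of this constant activity.

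Expression was deposited as FPKM, the reads on a gene divided by its length and by the library's total, so that levels can be compared between genes. From 32842267 to 44452425 reads per library lay on genes. The transfected *MDM4* ranged from 5.13 to 7.09 FPKM in the control libraries and was at 188, 185 and 56.3 FPKM in the MDM4 libraries (replicates 1 to 3), so that the groups did not overlap and MDM4 replicate 3 carried less of the transcript than the other two. The 8 epithelial markers summed to between 4221 and 4902 FPKM in every library, with *KRT8* and *KRT18* leading. The 6 blood cell markers summed to between 5.20 and 6.12 FPKM, mostly *CD68*, the 5 fibroblast markers to between 1.61 and 3.83 FPKM and the 3 endothelial markers to between 0.316 and 0.648 FPKM. *APC* transcript was present at 5.89 to 7.87 FPKM and *CTNNB1*, which encodes β-catenin, at 237 to 269 FPKM.

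Of the targets, 9 were plainly expressed and *LGR5* was not. By mean level over the 6 libraries the order was *MYC* (176 ± 47.4 FPKM, SD, n = 6), *AXIN2* (103 ± 11.3), *RNF43* (31.2 ± 4.32), *SP5* (30.3 ± 9.44), *NKD1* (30.3 ± 9.15), *TCF7* (30.2 ± 7.25), *NOTUM* (16.6 ± 3.16), *ZNRF3* (13.6 ± 1.58), *ASCL2* (9.05 ± 2.74) and *LGR5* (0.0225 ± 0.0154). A mean of 0.5 FPKM or more was reached by 12884 genes, among which *MYC* ranked 297 and *AXIN2* 612 by level. The ranges of *RNF43*, *SP5*, *NKD1* and *TCF7* overlapped and their order changed between libraries. The ranges of *NOTUM* and *ZNRF3*, and of *ZNRF3* and *ASCL2*, overlapped too. Within every library, however, *NOTUM* was above *ZNRF3* and *ZNRF3* above *ASCL2*. The ranges of *MYC* and *AXIN2* met only in the libraries numbered 3, where both were between 109 and 117 FPKM. The plot of FPKM by library shows a small step down from control to MDM4 in several genes and a larger displacement of the libraries numbered 3.

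The feedback inhibitors inside the cell come first. *AXIN2* encodes a scaffold of the destruction complex that is itself induced by β-catenin, and lies on chromosome 17 (65528563 to 65561647, minus strand; GRCh38, GENCODE release 29, as for all positions below unless another source is named). Its values, here and below in the order of replicates 1, 2 and 3, were 109, 105 and 115 FPKM for control and 89.9, 87.8 and 109 FPKM for MDM4, from 12900 to 20668 reads. MDM4 replicates 1 and 2 were the lowest of the 6, and MDM4 replicate 3 fell among the controls. *NKD1*, which encodes a protein that binds Dishevelled and damps the signal, is found on chromosome 16 (50548330 to 50649249, plus strand). Its levels were 25.6, 27.2 and 41.1 FPKM in the control and 23.7, 21.5 and 42.5 FPKM in the MDM4 libraries. Both libraries numbered 3 were above all the others. Within replicates 1 and 2 both MDM4 values were below both control values, by less.

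At the cell surface, *RNF43* and *ZNRF3* encode membrane ubiquitin ligases that remove Frizzled receptors and so lower the cell's response to ligand, and *NOTUM* encodes a secreted enzyme that strips the lipid from Wnt proteins. *RNF43* (chromosome 17, 58352500 to 58417595, minus strand) was at 28.9, 29.2 and 37.2 FPKM in the control and 26.8, 28.8 and 36.0 FPKM in the MDM4 libraries. *ZNRF3* (chromosome 22, 28883592 to 29057487, plus strand) was lower, at 12.5, 13.9 and 15.2 FPKM against 12.3, 11.8 and 15.5 FPKM. In both ligases the groups overlapped and the libraries numbered 3 were the top pair. *NOTUM* (chromosome 17, 81952507 to 81961840, minus strand) was at 17.8, 15.5 and 21.5 FPKM in the control and at 13.6, 13.1 and 17.9 FPKM in the MDM4 libraries. Each MDM4 library was below the control library of its number, but MDM4 replicate 3 was level with control replicate 1, so the groups overlapped.

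The crypt stem cell genes diverged. *LGR5* encodes a receptor for R-spondins and marks the stem cells at the base of the intestinal crypt (chromosome 12, 71439770 to 71586310, plus strand). Only 4, 2 and 0 reads fell on it in the control libraries and 4, 6 and 6 in the MDM4 libraries, against 12900 or more on *AXIN2*. These counts are at or near the 3 reads that a count of 0 allows, so no fold change is given and *LGR5* did not enter the test. *ASCL2*, a transcription factor of the same stem cells (chromosome 11, 2268495 to 2270952, minus strand), was present at 10.9, 7.89 and 13.1 FPKM in the control and 6.58, 5.97 and 9.87 FPKM in the MDM4 libraries. It had the fewest reads of the 9 expressed targets, 383 to 976 per library, and its 2 lowest values were MDM4 replicates 1 and 2. Of 11 crypt stem cell markers listed beside them, *OLFM4*, *SMOC2* and *HOPX* were also below 0.5 FPKM; these names were chosen after their values were seen. *CDCA7* and *LRIG1* were the most abundant of that list, at 29.4 to 40.5 and 11.4 to 20.3 FPKM. Colon differentiation genes were mostly silent, with 12 of 15 below 0.5 FPKM and *CDX2* and *CA2* the most abundant, at 9.99 to 14.2 and 8.79 to 13.1 FPKM.

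Among the nuclear factors, *TCF7* encodes a partner of β-catenin on DNA and is a target of the complex it belongs to. The gene (chromosome 5, 134114711 to 134151865, plus strand) was at 28.7, 26.5 and 40.7 FPKM in the control and 23.0, 24.8 and 37.7 FPKM in the MDM4 libraries. *SP5*, a zinc finger factor that is a direct target of the pathway in many tissues, is on chromosome 2 (170715351 to 170718078, plus strand). It stood at 30.7, 27.3 and 44.7 FPKM in the control and at 21.7, 20.1 and 37.4 FPKM in the MDM4 libraries, from 1357 to 3502 reads. For both factors each MDM4 library lay below its same-numbered control, and the libraries numbered 3 were above the other four in both groups.

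The *SP5* promoter is shown because it is the target with the densest run of TCF motifs among those with a sequence here, and because *SP5* was among the members that moved most in both comparisons. Promoter windows of *SP5*, *RNF43* and *TCF7*, 3 of the 10 genes, were taken from RefSeq (GRCh38.p14) as the 250 bases before a transcription start, and 5 windows were found because *RNF43* and *TCF7* each have 2 starts. The *SP5* window is chr2:170715087-170715336 on the plus strand, written from 5′ to 3′ with each copy of the TCF core motif CTTTG, or of CAAAG, the same letters on the other strand, in capitals.
SP5: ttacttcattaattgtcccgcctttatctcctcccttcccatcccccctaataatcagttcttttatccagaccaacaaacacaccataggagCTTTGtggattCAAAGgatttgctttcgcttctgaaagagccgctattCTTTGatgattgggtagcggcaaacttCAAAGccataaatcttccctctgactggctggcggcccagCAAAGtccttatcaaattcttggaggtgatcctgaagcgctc
The window held 5 copies, whose leftmost bases were at -157, -146, -109, -82 and -42 from the start, and 3 of them had the longer form CTTTGA (or TCAAAG), which contains the core. Of 35116 windows of the same length in the RefSeq table, several of which can belong to a gene, 42.1% held at least 1 core motif and 0.0854% held 5 or more, while 11.2% held at least 1 longer form and 0.0655% held 3 or more. The windows of *RNF43* held 1 core motif each and those of *TCF7* held 0 and 2, with no longer form. As the *SP5* window was chosen for its motifs, these shares do not allow for that choice and are not a test of it. A match describes the letters in these windows and is not a measured binding site. A link between the motifs and the changes of *SP5* was not tested.

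**Figure D1:**
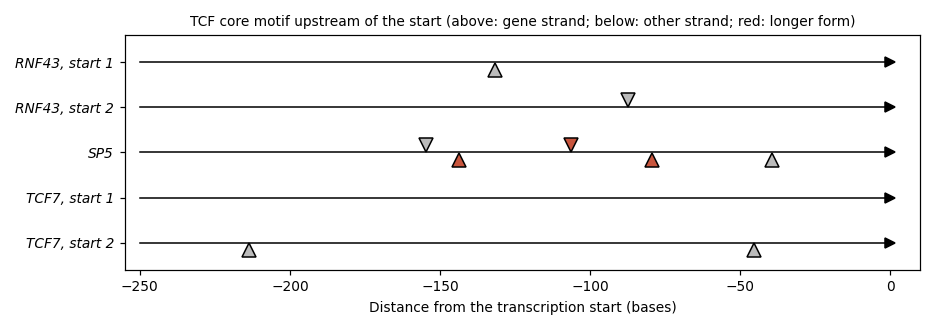
Positions of the TCF core motif (triangles) in the 250 bases before each transcription start of *RNF43*, *SP5* and *TCF7*; the horizontal axis is the distance from the start in bases, triangles above a line are on the gene's strand and those below on the other, and red marks the longer form. *SP5* has 5 triangles, 3 of them red, and no other window has more than 2.

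*MYC*, which encodes a transcription factor that drives ribosome production and growth, is a target of β-catenin in colon cancer and the most abundant of the 10. It is on chromosome 8 (127735434 to 127741434, plus strand). Its levels were 212, 195 and 117 FPKM in the control and 205, 213 and 113 FPKM in the MDM4 libraries, from 8857 to 22438 reads. Both groups covered the same range, and both libraries numbered 3 were far below the other four. The ratio of *MYC* to *AXIN2* FPKM was 1.94, 1.85 and 1.02 in the control and 2.28, 2.42 and 1.03 in the MDM4 libraries.

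The first comparison asked whether the targets differed between cells given MDM4 and control cells. Of the 9 tested targets, 8 had a lower mean in the MDM4 group, but with limma on log2(FPKM + 0.1) no target and none of the 12884 genes tested had an adjusted p under 0.05 (0% of all genes), and *MDM4* itself, 20.1-fold higher, had an adjusted p of 0.161. At an unadjusted p under 0.05 there were 0 targets and 222 genes, 58 higher and 164 lower (1.27% of all genes were lower). The largest mean differences were in *ASCL2* (10.6 ± 2.62 in control against 7.47 ± 2.10 FPKM in MDM4, n = 3 each; log2 fold change -0.51, SE 0.24) and *SP5* (34.2 ± 9.24 against 26.4 ± 9.55 FPKM; -0.40, SE 0.27). *NOTUM* (18.3 ± 3.04 against 14.8 ± 2.63 FPKM) differed by -0.30 (SE 0.16) and *AXIN2* (110 ± 5.10 against 95.7 ± 11.9 FPKM) by -0.21 (SE 0.094). *TCF7*, *NKD1*, *ZNRF3* and *RNF43* differed by -0.17, -0.13, -0.08 and -0.06, and *MYC* by 0.01 with a 95% interval of -0.67 to 0.69. The median log2 fold change of the 9 targets was -0.17, and that of all genes tested was -0.01. None of the 10 targets had every MDM4 library below every control library, as 3.76% of tested genes did.

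Within same-numbered pairs the differences had a clearer sign. *AXIN2*, *RNF43*, *NOTUM*, *ASCL2*, *TCF7* and *SP5*, 6 of the 9 tested targets, were lower in the MDM4 library in all 3 pairs, which 18.6% of all tested genes were. For *SP5* the ratio of MDM4 to control was 0.707, 0.737 and 0.836 in pairs 1 to 3, for *ASCL2* 0.605, 0.757 and 0.752, for *NOTUM* 0.765, 0.842 and 0.831 and for *AXIN2* 0.824, 0.834 and 0.949. *MYC* stood at 0.966, 1.09 and 0.966. With the replicate number as a block, again by limma, none of the targets passed. The adjusted p was 0.219 for *SP5*, *ASCL2* and *NOTUM*, 0.287 for *AXIN2* and 0.351 for *TCF7*, and it was between 0.481 and 0.949 for the other four. These 5 targets were lower at an unadjusted p under 0.05, as 7.32% of all genes were, whereas only 1 gene higher and 1 lower of 12884 passed the adjusted threshold (0.00776% in each direction), with *MDM4* the one that was higher (adjusted p = 4.77e-05). The 95% intervals under the block were -0.54 to -0.25 for *SP5*, -0.70 to -0.31 for *ASCL2*, and -0.11 to 0.13 for *MYC*.

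Only 1 fit called a target in this comparison. When voom and limma were run on the reads behind the FPKM values with the block, a fit chosen after the data were seen, *SP5* was lower with a log2 fold change of -0.39 and an adjusted p of 0.0464, where 0.179% of all genes were called lower. *ASCL2* had an adjusted p of 0.0648, *NOTUM* 0.11 and *AXIN2* 0.119 in the same fit. Over replicates 1 and 2 alone no target passed either, with *SP5* nearest (-0.47, adjusted p = 0.0541), while 0.512% of all genes were called lower.

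Interferon-stimulated genes also differed between these libraries, but with control replicate 3 near the MDM4 libraries. The 20 listed genes summed to 677 and 710 FPKM in control replicates 1 and 2, to 234 FPKM in control replicate 3, and to 203, 214 and 224 FPKM in MDM4 replicates 1 to 3. All 18 of the list that were tested had a lower mean in the MDM4 group, as 6803 of all 12884 genes did. Their median log2 fold change was -1.25. Over replicates 1 and 2 alone 16 of them were called lower, where 0.512% of all genes were. *ISG15*, the most abundant, was at 232, 240 and 92.7 FPKM in the control and 89.8, 95.7 and 86.1 FPKM in the MDM4 libraries. In replicate 3 against the others 3 of the 18 fell, where 14.6% of all genes did: *OAS2* (-1.90), *IFI27* (-0.96) and *ISG15* (-0.73). *IFI6*, the second by level, did not pass (-1.33, adjusted p = 0.0517 by limma). That fit averages both plasmid groups. The difference of the MDM4 effect between replicate 3 and the others, fitted below, was above 0 in all 18, with a median of 1.61. In pair 3 the interferon list summed to 234 FPKM in the control and 224 FPKM in the MDM4 library. The ratios of MDM4 to control in this single pair were 0.836 for *SP5*, 0.752 for *ASCL2* and 0.831 for *NOTUM*, the lowest of the tested targets. The others were nearer to 1, at 0.93 for *TCF7*, 0.949 for *AXIN2*, 0.966 for *MYC* and 0.97 for *RNF43*. *ZNRF3* and *NKD1* were at 1.02 and 1.03. The part of the interferon-stimulated genes in the differences of the Wnt targets was not tested.

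**Figure D2:**
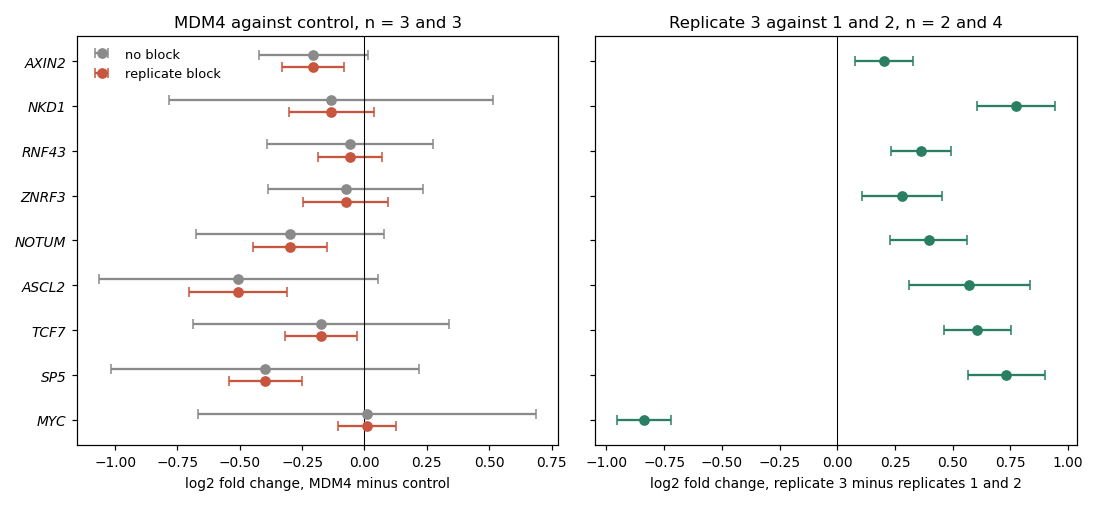
Log2 fold change (points) with its 95% interval (bars) from limma for the 9 tested targets; left, MDM4 minus control without a block (grey) and with the replicate number as a block (red), 3 libraries against 3; right, replicate 3 minus replicates 1 and 2 (green), 2 libraries against 4. The intervals on the left narrow under the block and lie below 0 in 5 genes, and on the right 8 genes lie above 0 and *MYC* below it.

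The second comparison set the 2 libraries numbered 3 against the other 4, with the plasmid as a covariate; it uses the same 6 libraries as the first. What the number marks (a day, a passage, a preparation) is not given in the sources used here. All 9 tested targets passed at an adjusted p under 0.05, 8 of them higher in replicate 3, where 29.6% of all genes were called higher, and 1, *MYC*, lower, as 14.6% were. *NKD1* rose by 0.77 on the log2 scale (SE 0.076, adjusted p = 5.02e-05), from 24.5 ± 2.46 FPKM (SD, n = 4) to 41.8 ± 0.953 FPKM (n = 2). *SP5* rose by 0.73 (SE 0.075, adjusted p = 6.01e-05), from 24.9 ± 4.92 to 41.0 ± 5.18 FPKM. *TCF7* rose by 0.61 (adjusted p = 7.38e-05), *ASCL2* by 0.57 (adjusted p = 0.0032), *NOTUM* by 0.40 (adjusted p = 0.0019) and *RNF43* by 0.36 (adjusted p = 0.000774). *ZNRF3* and *AXIN2* rose least, by 0.28 (adjusted p = 0.0139) and 0.20 (adjusted p = 0.014). *MYC* fell by 0.84 (SE 0.053, adjusted p = 4.83e-06), from 206 ± 8.49 to 115 ± 2.83 FPKM, or to 0.56-fold.

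The direction was the same in both plasmid groups. Relative to the mean of replicates 1 and 2, replicate 3 of the control stood at 1.56 for *NKD1*, 1.54 for *SP5*, 1.47 for *TCF7* and 0.577 for *MYC*, and replicate 3 of the MDM4 group at 1.88, 1.79, 1.58 and 0.542. For *AXIN2* the ratios were 1.08 and 1.23. Both libraries numbered 3 were above all 4 others in 7 targets, as they were in 37.3% of all tested genes, and below them in *MYC*, as in 18.4%. In *AXIN2* and *NOTUM* that gap was thin, since MDM4 replicate 3 exceeded control replicate 1 by less than 1 FPKM. *ASCL2* overlapped because control replicate 1 was above MDM4 replicate 3.

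The median log2 difference over all genes was 0.09 here, against 0.40 for the 9 targets. Scaling the libraries by median ratios moved the median of all genes to -0.01 and the share of higher genes among those called from 67% to 45.4%, and left 6 targets called higher, where 19.1% of all genes were, and *MYC* lower, where 23% were, without *AXIN2* (0.10) and *ZNRF3* (0.18). Without MDM4 replicate 3, 5 targets were called in place of 9, namely *NKD1*, *RNF43*, *TCF7* and *SP5* higher and *MYC* lower, where 11.7% of all genes were called higher and 7.14% lower. That fit has only control replicate 3 on its side, a single library assumed to vary like the other four.

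Whether the effect of MDM4 differed between replicate 3 and the other replicates was asked with a product term in limma. No target passed (0 of 9, each with an adjusted p of 1, and 0 at an unadjusted p under 0.05), while 0.194% of all genes did. The term rests on 1 pair of libraries in replicate 3, and its 95% interval was wide, from -0.13 to 0.55 for *SP5* and from -0.05 to 0.44 for *AXIN2*. The *MDM4* transcript did differ (-1.35, adjusted p = 0.00166), being 29.7- and 26.1-fold higher than in the same-numbered control in pairs 1 and 2, and at 56.3 against 5.13 FPKM in pair 3.

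The rest of the pathway was read in replicate 3 from lists of known members. In this comparison 29.6% of all genes were called higher and 14.6% lower. Counts of genes that rose or fell are of called genes and are to be read beside these shares. Of 26 other Wnt targets, 25 were tested and 14 rose and 7 fell, with a median of 0.29. *PROX1*, a homeobox factor (1.44), *EPHB3*, a receptor that helps to place cells along the crypt (1.43), and *TDGF1* (1.02) rose. *EPHB3* went from 2.43 to 2.96 FPKM in replicates 1 and 2 of both groups to 7.998 and 6.597 FPKM in replicate 3. *FOSL1*, a subunit of the AP-1 factor, fell by 1.09, from 132 to 156 FPKM in replicates 1 and 2 to 70.0 and 67.6 FPKM. The 2 most abundant of the list also fell, *CCND1*, which encodes cyclin D1, by 0.56 and *BMP4* by 0.66. Of the 8 crypt stem cell markers tested, 3 rose and 2 fell, among them *TNFRSF19* (0.95), *LRIG1* (0.72), *CDCA7* (-0.42) and *EPHB2* (0.42), and of the 3 colon differentiation genes *VIL1* (0.50) and *CA2* (0.22) rose. The targets thus did not all move in 1 direction, and *CCND1*, *BMP4* and *FOSL1* moved as *MYC* did.

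Inhibitors of the pathway that act outside the cell or at its surface, many of them targets too, showed the same mixture. Of 16 listed, 8 were tested, 5 rose and 1 fell, where 29.6% of all genes rose and 14.6% fell. *DKK4* rose by 1.59, from 8.12 and 6.69 to 18.5 FPKM in the control and from 3.26 and 4.47 to 14.2 FPKM in the MDM4 libraries. *DKK3* rose by 0.80, *APCDD1* by 0.63 and *KREMEN1* by 0.62, and *DKK1*, the most abundant, fell by 0.51. In the comparison of MDM4 with control, *DKK4* (-0.75), *DKK3* (-0.46) and *APCDD1* (-0.35) were lower with the block, each with an adjusted p of 0.219 by limma. *DKK1* was higher in the same fit (0.18, adjusted p = 0.294 by limma). Of the 8 tested, 6 had a lower mean and 2 a higher one. Over replicates 1 and 2 alone *DKK4* (-0.93, adjusted p = 0.0222) and *APCDD1* (-0.42, adjusted p = 0.0213) were called lower, 2 of the 8, where 0.512% of all genes were. *APCDD1* was at 116, 105 and 158 FPKM in the control and 84.3, 80.7 and 138 FPKM in the MDM4 libraries, so its order across libraries was the one seen for *SP5*.

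Receptors, of which 15 of 17 were tested, gave 10 higher and 1 lower gene in replicate 3 with a median of 0.46. Among all genes 29.6% were called higher and 14.6% lower. *FZD9* (0.95), *FZD2* (0.92) and *FZD4* (0.78), all Frizzled receptors, and *LGR4* (0.87), an R-spondin receptor, rose. *LGR4* was at 3.36 to 8.04 FPKM over the 6 libraries, in contrast to *LGR5*. *RYK* and *LRP5*, the most abundant of the list, were at 31.2 to 34.3 and 22.3 to 28.7 FPKM. Of 19 ligands, 13 were tested, 7 rose and 3 fell. *WNT11* rose by 1.32, *WNT5B* by 1.28 and *WNT8B* by 1.13, all below 6 FPKM in every library, and *WNT9A*, at 4.61 to 8.81 FPKM, fell by 0.81. *WNT5A* and *WNT16*, the most abundant, fell by 0.74 and 0.78. Risers were not limited to low levels, since *WNT10A* (10.1 to 16.2 FPKM) rose by 0.46 and *WNT6* (11.6 to 17.8 FPKM) by 0.28; these names were added after their values were seen. Of the genes for ligand secretion and the R-spondins, *WLS*, which carries Wnt proteins to the membrane, rose by 0.53, *PORCN*, which attaches their lipid, fell by 0.34, and the 4 R-spondins were below 0.5 FPKM.

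Of the 17 genes of the destruction complex and the Dishevelled family, 8 rose and 1 fell in replicate 3, with a median of 0.11 that was near the 0.09 of all genes. Among all genes 29.6% rose and 14.6% fell. *DVL2* rose by 0.41, *TNKS2* by 0.40 and *BTRC* by 0.39, and *CSNK1D* fell by 0.36. *CSNK1A1*, the kinase that starts the phosphorylation of β-catenin, lay between 120 and 132 FPKM in all 6 libraries, with a log2 fold change of 0.02 in replicate 3 (95% interval -0.09 to 0.14) and 0.03 for MDM4 (-0.11 to 0.17). *CTNNB1* differed by 0.04 in replicate 3 (adjusted p = 0.527). In the comparison of plasmids *CTNNB1* was at 249, 269 and 262 FPKM in the control and 237.5, 236.9 and 247 FPKM in the MDM4 libraries. Every MDM4 library was thus below every control library, as in 3.76% of all tested genes. That difference of -0.11 had an adjusted p of 1 by limma, and of 0.374 with the block. Of 12 TCF factors and cofactors, 11 were tested, 5 rose and 1 fell; *TLE4*, a corepressor, rose by 1.42, to 2.82 FPKM in MDM4 replicate 3 from 0.757 to 1.18 FPKM in replicates 1 and 2, *TCF7L1* by 0.60, *TLE1* by 0.52 and *BCL9* by 0.51, and *BCL9L*, the most abundant, fell by 0.32. *TLE3*, the next by level at 28.3 to 34.2 FPKM, differed by 0.16 and did not pass.

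Genes listed as targets of MYC mostly had lower values in replicate 3, 14 of 15, though not all of them passed. Among all 12884 genes tested 4743 were lower. Of 15 tested, 9 fell and 0 rose in replicate 3 by limma (0 rose at an unadjusted p under 0.05 too), with a median of -0.44. Among all genes 14.6% fell and 29.6% rose. *NOP56*, a ribosome assembly factor, fell by 0.65, from between 202 and 219 FPKM to 139 and 127 FPKM, and *WDR43* fell by 0.63, *RRP12* by 0.57 and *NOP16* by 0.55. *LDHA*, the most abundant at 1246 to 1540 FPKM, fell by 0.17, and *NPM1* did not pass (-0.02). Of 15 cell cycle genes, 10 fell and 1 rose, with *CCNE2* (-0.83), *CCNE1* (-0.63), *CDC6* (-0.46) and *MCM5* (-0.34) as the called genes of largest size. *PCNA*, the most abundant at 214 to 245 FPKM, differed by -0.10 and did not pass, and *CCNB1*, the next, fell by 0.25. Among markers outside the epithelium, *COL1A1* rose by 0.92 to 3.71 and 3.80 FPKM in replicate 3, while the other fibroblast markers were below 0.5 FPKM. The part of MYC, of the cell cycle genes or of *COL1A1* in the rise of the other targets was not tested.

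**Figure D3:**
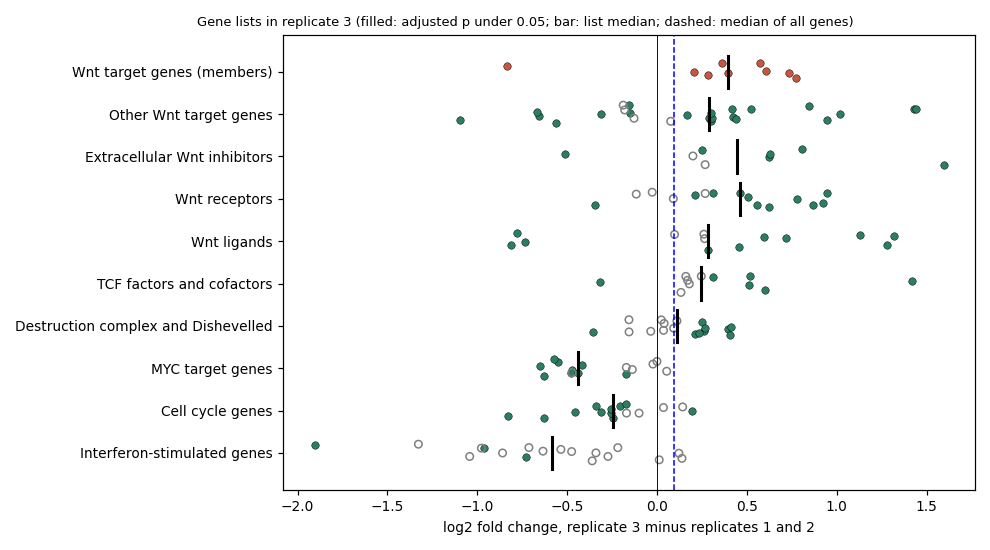
Log2 fold change of each tested gene, replicate 3 minus replicates 1 and 2 (horizontal axis), in 10 gene lists (rows); filled points have an adjusted p under 0.05, black bars are list medians and the dashed line is the median of all genes. The 9 targets (red) lie to the right of 0 except *MYC* at -0.84, and the MYC target genes lie mostly to the left, with a median of -0.44.

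In the comparison of MDM4 with control the same lists held no gene past the adjusted threshold, without a block or with it; over replicates 1 and 2 alone the called genes were *DKK4*, *APCDD1* and the 16 interferon-stimulated genes. Their medians without a block were -0.11 for the other Wnt targets, -0.27 for the extracellular inhibitors, 0.04 for the receptors and -0.23 for the ligands. They were -0.08 for ligand secretion, 0.03 for the destruction complex, -0.01 for the TCF factors and -0.03 for the MYC targets. The median of all genes was -0.01. With the block, 6 of the 25 other Wnt targets and 5 of the 8 extracellular inhibitors were lower at an unadjusted p under 0.05. By the same limma fit 1 of each list was higher, and 7.32% of all genes were lower. *CCND1* and *BMP4* differed by 0.03 and 0.02, beside 0.01 for *MYC*.

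Some reads on the targets could belong to overlapping genes, since the sources used here do not say whether strand was kept. Exons of *TCF7* share 210 bases with *SKP1* on the opposite strand, and exons of *RNF43* share 143 bases with *SUPT4H1* on the same strand and 3096 bases with the antisense gene *TSPOAP1-AS1*. Exons of *AXIN2* share 1316 bases and those of *RNF43* 4326 bases with protein-coding genes on the same strand that have no gene name and are not rows of the table. Exons of *LGR5* and *NKD1* share 208 and 67 bases with unnamed antisense genes.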

How the data were processed

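RNA from 3 control and 3 MDM4 libraries of SW480 cells was enriched with oligo(dT) and sequenced. The authors deposited FPKM values for 19225 symbols in 1 table, 1 column per library; the aligner, counter, genome build, annotation and strand setting are not given in the sources used here. Column letters and numbers gave group and replicate. The values are whole multiples of 1 step per gene, from which whole reads were recovered for 17188 of 17189 symbols above 0 (99.99%, within 0.02 of a whole number; 98.22% in simulated data). Library totals of 33044788 to 44729596 reads set the precision.

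Genes under a mean of 0.5 FPKM were left out, and log2(FPKM + 0.1) of the remaining 12884 was fitted with limma 3.58.1 (eBayes with trend) in R 4.3.3, and p-values were adjusted over all genes by the Benjamini-Hochberg method. The fits were also run on simulated data with independent noise in each library and added changes larger than those of the targets. For MDM4 against control, these data held no difference shared by same-numbered libraries. That run therefore does not cover effects as small as those of the targets. Tables and plots used Python 3.11.15, numpy 2.4.6, pandas 2.3.3 and matplotlib 3.10.9. Intervals are 95%. The comparison of MDM4 with control had no block; replicate 3 was compared with the plasmid as a covariate. Same-numbered libraries deviated together from their group means (correlations over genes of 0.458, 0.451 and 0.783), and the number was therefore used as a block in an alternative. Replicates 1 and 2 also correlated across groups (0.439 and 0.462), so the check does not tell them apart.

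The 10 genes, the second comparison and the lists were chosen with earlier results of these data known, and no list was tested as a set. Beside the 10 genes, *MDM4* and *CSNK1A1*, the text names from each list the called genes, at most 4 by size of change, and the 2 most abundant, except in the lists of other cell types, which are given as sums. *APC* was added after its values were seen, as were other names marked so in the text.

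Alternatives were other pseudocounts, filters and scalings, quantile normalization, eBayes without trend, voom on the recovered reads, each library left out, replicates 1 and 2 alone and no group term. Added after seeing the data were replicate 3 as a term, and voom or quantile normalization with the block.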

Additional observations from a re-analysis of the deposited data

How the results depend on the processing

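Between MDM4 and control, 0 Wnt targets were called in every alternative but 1 of the 20 tried, leaving out each library included. The exception, voom on recovered reads with the replicate block, was added after the data were seen and called 1, *SP5*. The replicate block alone called 0 targets and changed no call, and the block with quantile normalization and replicate 3 as a term also gave 0. *AXIN2*, *ASCL2*, *ZNRF3*, *NOTUM* and *SP5* kept a lower mean with MDM4 in all 20 alternatives, with log2 fold changes that ranged from -0.31 to -0.15 for *AXIN2*, -0.72 to -0.34 for *ASCL2*, -0.20 to -0.0006 for *ZNRF3*, -0.44 to -0.17 for *NOTUM* and -0.68 to -0.19 for *SP5*. The lower ends came without MDM4 replicate 3, and the upper ends without control replicate 3 or MDM4 replicate 2. When a library was left out the log2 fold change ranged from -0.44 to 0.079 for *NKD1*, -0.18 to 0.061 for *RNF43*, -0.25 to 0.30 for *MYC* and -0.39 to 0.012 for *TCF7*. The sign turned, without passing any threshold, for all of them without control replicate 3, for *RNF43* (0.03) and *MYC* (-0.12) without MDM4 replicate 1 and for *NKD1* (0.05) and *MYC* (-0.15) without MDM4 replicate 2.

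In replicate 3, the number of targets called was 9, between 5 (without MDM4 replicate 3) and 9 when a library was left out, and between 7 and 9 under the other alternatives. No sign turned in 144 repeats, of which 11 lost the threshold, 5 of *AXIN2*, 3 of *ZNRF3*, 2 of *ASCL2* and 1 of *NOTUM*. *NKD1*, *RNF43*, *TCF7*, *SP5* and *MYC* passed in all 16 alternatives, of which the 2 that leave out a library numbered 3 keep a single library on that side and take its spread from the others. The product term called 0 targets in each of its 4 alternatives.

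The second comparison has 2 libraries on 1 side, whose number cannot be told apart from whatever else they share. *LGR5*, at 0 to 6 reads, is beyond the reach of this depth.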
